A study of Mus musculus with 32 samples.

Results

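Macrophages grown from wild-type mouse bone marrow and given dexamethasone together with LPS for 24 h were compared with untreated macrophages, to describe where the co-treated cell ends up relative to its own baseline. The comparison holds 4 co-treated and 4 control libraries, chosen by their labels, of 32 libraries in the series. All 8 libraries carry the genotype Acod1 WT on a C57BL/6J background. Marrow came from the femur and tibia of mice aged 8 to 12 weeks and was cultured with L929 cell supernatant, which supplies the growth factor M-CSF. Control cells received neither agent. Co-treated cells received 100 nM dexamethasone, a synthetic glucocorticoid, and 100 ng LPS, a cell wall component of Gram-negative bacteria, with no volume given. WT libraries with LPS alone (4) or dexamethasone alone (4), both for 24 h, served as reference points, and the 8 Acod1 KO libraries with both agents or with neither were read for the same contrast. The series asks how glucocorticoids restrain inflammation in macrophages that meet LPS.

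LPS is sensed by Toll-like receptor 4, which activates NF-kappaB and AP-1 and, through type I interferon, the antiviral gene programme. Glucocorticoids bind the glucocorticoid receptor, which induces genes at its own binding sites and restrains inflammatory transcription at others. LPS-treated macrophages are known to shift to glycolysis and to make itaconate with the enzyme encoded by Acod1. A cell that meets both agents can therefore hold each LPS response at control level, at an intermediate level, at the LPS level or beyond it, and these outcomes are counted below.

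The 8 compared libraries held 17559079 to 22820271 counted read pairs, and levels are given in CPM on TMM-scaled library sizes, as values per library or as the mean ± SD of 4. Log2 changes are given ± SE. Where a group holds few counts, as control does for Hp, Marco, Il1b and Nos2, the SE understates the counting error. Intervals built from such an SE share this limit. Whether replicates are separate mice is not stated in the labels, and p-values therefore measure only the variation among these libraries, which may be technical. Genes were tested with edgeR's quasi-likelihood test over all 8 groups of the series with a gene called where its Benjamini-Hochberg adjusted p was under 0.05. Every pair of WT replicates differed by more than counting noise, with a chi-square per degree of freedom of 2.05 to 4.68 within the compared groups. In the LPS group replicate 3 stood apart, at 17.8 to 18.4 against the other LPS libraries, and class counts, which rest on the LPS group, are given with and without it. Ribosomal protein genes took 3.09% to 3.19% of control counts and 2.41% to 2.49% of co-treated counts, and the 10 most abundant genes took 9.03% to 9.33% and 13.2% to 13.4%. The glucocorticoid receptor gene Nr3c1 measured 148 ± 3.94 CPM in control and 209 ± 2.41 CPM in co-treated libraries, a log2 change of 0.50 ± 0.04. Acod1 measured 9.89 ± 1.26 CPM in control, 6483 ± 249 CPM under LPS and 2738 ± 34.8 CPM under both agents.

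The libraries carried macrophage markers at a high level. Summed over 17 macrophage genes, the level was 31375 to 33188 CPM in control and 31895 to 32819 CPM in co-treated libraries. Lyz2 made up most of it, at group means of 18383 and 20949 CPM, and 12 of the 17 genes fell while 5 rose. Markers of other cells were low. In the erythroid list 0 of 8 genes passed the filter on low counts, and sums stayed at or below 0.701 CPM in both groups. The 12 neutrophil markers summed to 14.2 to 18.6 CPM in control and 15.5 to 19.9 CPM in co-treated libraries, nearly all of it Mmp8, and Mpo and Retnlg were at 0 counts in both. The 11 T and NK cell markers summed to 2.71 to 4.22 CPM in control and 0.323 to 0.702 CPM in co-treated libraries, with Cd3e, Cd3g, Cd8b1, Ncr1 and Nkg7 at 0 counts in both, and the 9 dendritic cell markers to 2.51 to 3.75 and 1.78 to 2.73 CPM. The 9 B cell markers summed to 99.4 to 107 CPM in control and 2.83 to 3.96 CPM in co-treated libraries, nearly all of it Ighm, while Ms4a1, Pax5 and Igll1 were at 0 counts in both. The 8 mast cell and basophil markers summed to 14.4 to 17.8 CPM in control and 0.202 to 0.342 CPM in co-treated libraries, led by Kit, with Mcpt4, Mcpt8, Tpsb2 and Fcer1a at 0 counts in both. The 9 fibroblast and stromal markers summed to 1.35 to 1.76 CPM in control and 30.3 to 35.4 CPM in co-treated libraries, led in the latter by Pdgfrb, with Lum, Pdgfra and Thy1 at 0 counts in both. What these shifts contribute to any result was not tested, and in bulk RNA fewer cells of a type cannot be told apart from less RNA per cell.

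Co-treated cells were far from baseline. Of 14427 genes tested, 4981 were higher and 5455 lower than control, which is 34.5% and 37.8% of genes, and 72.3% were called in either direction. With a change of at least 2-fold, 1730 genes (12.0%) were higher and 2251 (15.6%) lower. The median log2 change over all genes was -0.04. Without TMM scaling this median moved to -0.20 and the split to 3958 higher and 6760 lower, so directions close to 0 depend on the scaling, and changes are read here relative to the TMM median. On the first principal component of the 16 WT libraries, which held 65.5% of the variance, co-treated libraries lay at 56.0 to 58.0, between control at -82.2 to -81.0 and LPS at 105 to 108. On the second, with 19.8% of the variance, they lay at 70.4 to 72.2, apart from control (-24.0 to -23.7), dexamethasone (4.73 to 5.69) and LPS (-56.5 to -49.1).

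**Figure D1:**
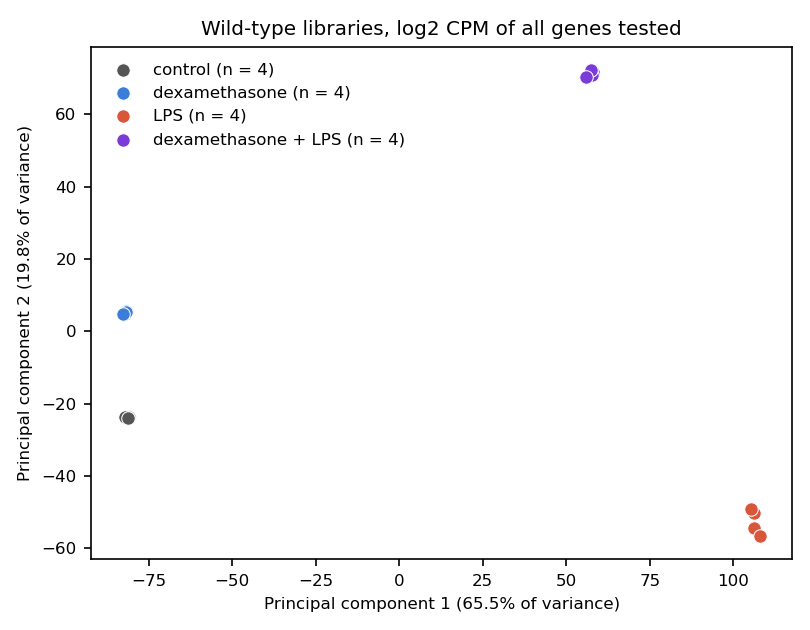
First (x axis) and second (y axis) principal component scores of the 16 wild-type libraries from log2 CPM, coloured by treatment, 4 libraries per group. Co-treated libraries sit at 56.0 to 58.0 on the first component, short of LPS, and at 70.4 to 72.2 on the second, above the other 3 groups.

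To place each LPS response, 2175 genes that LPS raised and 2495 that it lowered by at least 2-fold were sorted by the 95% interval of their net change, meaning co-treated against control. A gene counted as returned when this interval lay within 1.5-fold of control, as short of control when it lay wholly on the LPS side of that band, and as passed when it lay wholly on the other side. LPS called 15.1% of all tested genes as higher and 17.3% as lower at this size. The LPS and net changes share the 4 control libraries, so the classes describe levels and are not independent of each other.

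Return to baseline was the exception. Of the LPS-induced genes 250 (11.5%) returned, 1160 (53.3%) stopped short, 78 (3.59%) passed below control and 687 (31.6%) were not resolved. Among those that stopped short, 353 lay more than 1.5-fold below their LPS level and are called partly reversed, 300 stayed at the LPS level, 182 went more than 1.5-fold beyond it, and 325 could not be placed against it. Of the LPS-repressed genes 218 (8.74%) returned, 1635 (65.5%) stopped short, 56 (2.24%) passed above control and 586 (23.5%) were not resolved. The short group held 404 partly reversed, 363 at the LPS level, 148 beyond it and 720 not placed. Without LPS replicate 3, 252 induced genes returned, 79 passed, 344 were partly reversed, 313 at the LPS level and 177 beyond it. The same counts of repressed genes were 221, 52, 405, 348 and 132. The unresolved genes had low levels as a group, though not in every case. Their median level in the higher of control and co-treated was 0.628 CPM for induced and 1.28 CPM for repressed genes, against 35 and 47.5 CPM for those that returned. Counts depend on the chosen band, and a band of 2-fold raised the returned genes to 531 induced and 548 repressed, while a narrower band, of a factor 25% above 1, left 91 and 62.

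**Figure D2:**
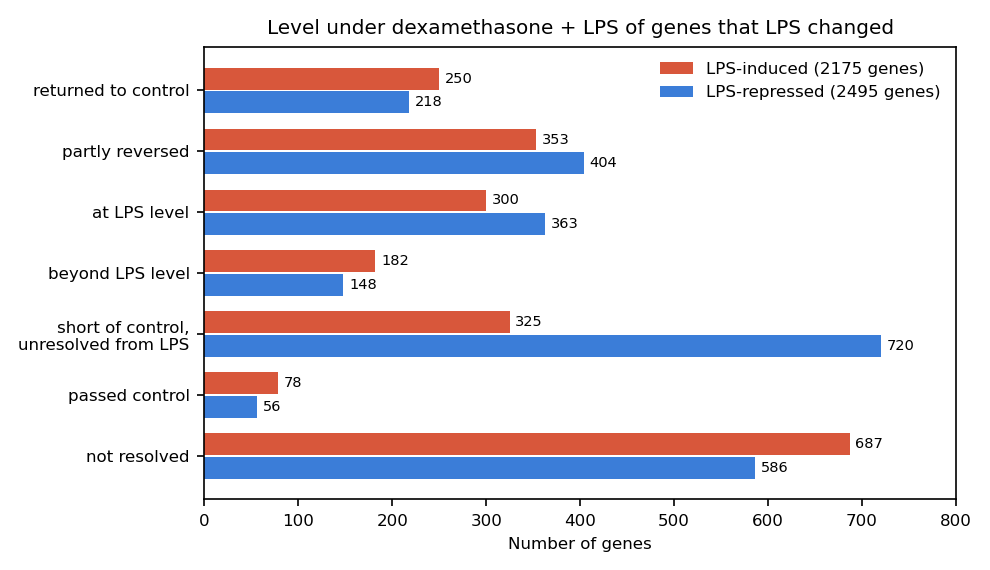
Number of genes (x axis) in each outcome class (y axis) for LPS-induced (red) and LPS-repressed (blue) genes in wild-type cells under dexamethasone plus LPS. The returned class holds 250 and 218 genes and the passed class 78 and 56.

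Promoters from RefSeq (GRCm38.p6, 250 bases before to 50 after the start) were searched on both strands for 7 motifs, and 10176 of the 14427 tested genes matched by symbol, with 12956 promoters. The following 6 are shown because they hold a motif of the factors named above and their genes ended below control, near or far below the LPS level, or beyond it, with matches in capitals. For the interferon response element core, searched as GAAANNGAA, the promoters are those of Ifit3, an antiviral gene that fell below control (chr19:34583279-34583578, plus strand), and of Rsad2, the antiviral enzyme viperin (chr12:26456403-26456702, minus strand). Rsad2, chosen after its values were seen, was raised by LPS by 2.22 ± 0.07 and ended below control at -1.54 ± 0.07.
Ifit3: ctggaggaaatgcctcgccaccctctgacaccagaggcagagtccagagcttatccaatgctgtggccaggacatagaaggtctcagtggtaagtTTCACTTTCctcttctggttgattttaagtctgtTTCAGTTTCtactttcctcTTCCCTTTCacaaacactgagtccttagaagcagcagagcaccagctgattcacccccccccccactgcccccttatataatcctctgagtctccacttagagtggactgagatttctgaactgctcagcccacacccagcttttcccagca
Rsad2: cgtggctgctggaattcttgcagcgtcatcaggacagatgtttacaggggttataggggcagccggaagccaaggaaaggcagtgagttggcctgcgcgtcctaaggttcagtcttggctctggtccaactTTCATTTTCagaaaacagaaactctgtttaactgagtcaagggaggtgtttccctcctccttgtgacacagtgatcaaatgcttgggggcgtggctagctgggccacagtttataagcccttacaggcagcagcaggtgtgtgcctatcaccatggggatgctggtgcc
For NF-kappaB, searched as GGAATTTCC, GGGATTTCC and GGGACTTTC, the promoters are those of Tnfaip3, an inhibitor of the pathway that stayed high (chr10:19015361-19015660, minus strand), and of the chemokine Cxcl3, which ended far below its LPS level (chr5:90785851-90786150, plus strand). RefSeq lists another Tnfaip3 promoter, which held 0 matches and is not shown.
Tnfaip3: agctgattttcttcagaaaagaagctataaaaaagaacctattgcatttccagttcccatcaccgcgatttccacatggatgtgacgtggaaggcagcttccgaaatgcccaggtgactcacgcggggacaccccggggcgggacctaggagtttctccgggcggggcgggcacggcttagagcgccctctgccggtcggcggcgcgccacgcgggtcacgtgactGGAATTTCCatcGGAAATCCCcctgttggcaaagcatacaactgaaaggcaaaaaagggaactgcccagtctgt
Cxcl3: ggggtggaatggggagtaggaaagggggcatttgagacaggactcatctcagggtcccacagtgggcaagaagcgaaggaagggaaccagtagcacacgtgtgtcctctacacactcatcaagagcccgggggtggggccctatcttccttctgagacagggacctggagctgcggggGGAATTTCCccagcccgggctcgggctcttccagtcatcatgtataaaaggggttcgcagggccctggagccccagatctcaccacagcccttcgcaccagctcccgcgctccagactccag
For AP-1, searched as TGACTCA, the promoter is that of the collagenase Mmp13, which passed below control (chr9:7272264-7272563, plus strand). For the glucocorticoid response palindrome core, searched as ACANNNTGT, it is that of Lcn2, which ended beyond LPS (chr2:32387690-32387989, minus strand).
Mmp13: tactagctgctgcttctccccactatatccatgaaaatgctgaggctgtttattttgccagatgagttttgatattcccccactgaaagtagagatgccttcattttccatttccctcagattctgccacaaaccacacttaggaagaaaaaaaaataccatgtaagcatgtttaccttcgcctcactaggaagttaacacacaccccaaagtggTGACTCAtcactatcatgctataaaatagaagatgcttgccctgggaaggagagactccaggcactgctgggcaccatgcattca
Lcn2: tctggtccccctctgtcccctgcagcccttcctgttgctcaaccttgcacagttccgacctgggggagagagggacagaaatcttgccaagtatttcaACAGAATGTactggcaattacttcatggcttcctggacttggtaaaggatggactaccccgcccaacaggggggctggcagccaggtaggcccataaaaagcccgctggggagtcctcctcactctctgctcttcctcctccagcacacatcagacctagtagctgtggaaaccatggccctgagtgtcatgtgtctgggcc

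A match describes the letters and not binding, promoters of a gene were counted singly, and no test of the shares was made. The NF-kappaB motifs were in 0.986% of all 32851 promoters and 1.17% of those of tested genes, in 2.99% of promoters of partly reversed LPS-induced genes and in 1.54% of those of returned ones. The interferon core was in 8.56% of all promoters, 7.48% of tested ones, 10.0% of returned, 10.7% of partly reversed, 7.28% of at-LPS, 12.7% of beyond-LPS and 14.9% of passed LPS-induced promoters, the last being 10 of 67, so it was not particular to genes that came down. The palindrome core was in 6.85% of all and 4.43% of tested promoters and in 9.64% of those of LPS-induced genes beyond the LPS level, which is 16 of 166. AGAACA, a single arm of the receptor's element that can overlap the palindrome, was in 19% of all, 13% of tested and 18.1% of the same class, with 17.7% of at-LPS and 16.7% of partly reversed promoters close to it. TGACTCA was in 5.20% of all and 3.87% of tested promoters, in 8.96% of partly reversed and 5.97% of passed LPS-induced ones. The E-box CACGTG was in 7.15% of all and 9.81% of tested promoters and in 4.22% of those beyond the LPS level, and the cAMP response element TGACGTCA in 1.79%, 2.96% and 3.61% of the same sets.

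Acute-phase and antimicrobial genes went beyond the LPS level. This group encodes secreted proteins of the innate response, and of its 24 members 19 passed the filter, of which 18 rose and 0 fell, beside 34.5% and 37.8% of all tested genes. Their median net log2 change was 9.17, or 8.34 with genes at 0 counts in control set to their lower bound, beside 6.29 under LPS alone. Of the 16 that LPS induced, 12 were beyond the LPS level, 2 at it and 1 partly reversed, and 1 could not be placed, where 8.37% of all LPS-induced genes were beyond the LPS level. Lcn2, which encodes the siderophore-binding protein lipocalin 2 (ENSMUSG00000026822.15, chromosome 2, 32274645 to 32278264 in the deposited table), measured 0.0501, 0, 0 and 0.0534 CPM in the control libraries and 8599, 8595, 8829.6 and 8424 CPM in the co-treated ones. LPS alone gave 1040.2, 1127, 985 and 1104 CPM. The control level rests on 2 counts, and the ratio of co-treated to control was 336000-fold (95% interval 93100 to 2780000). Every co-treated library was above every LPS library, by a log2 difference of 3.02 ± 0.05 between the groups.

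Hp, which encodes the haemoglobin scavenger haptoglobin (ENSMUSG00000031722.11, chromosome 8, 110301760 to 110305804), measured 0.201, 0.0501, 0.411 and 0.107 CPM in control, 512, 518, 536 and 505 CPM under LPS and 7615, 7699.7, 7677 and 7579.8 CPM under both agents. Its net log2 change was 15.23 ± 0.10 (edgeR adjusted p = 5.0e-60), with 55.5 ± 3.54 CPM under dexamethasone alone. The serum amyloid gene Saa3 (ENSMUSG00000040026.9, chromosome 7, 46361422 to 46365124) rose from 0.317 ± 0.227 CPM in control to 43182 ± 376 CPM in co-treated libraries, with 22378 ± 3176 CPM under LPS. Ptx3, for the soluble pattern recognition protein pentraxin 3 (ENSMUSG00000027832.6, chromosome 3, 66127331 to 66133226), had 0 counts in all 4 control libraries and 146, 143, 130.2 and 136 CPM in the co-treated ones, at least 3620-fold higher. LPS alone gave 0.827, 0.681, 0.260 and 0.496 CPM and dexamethasone alone 0.151, 0.0400, 0 and 0.0446 CPM, so Ptx3 was high in the co-treated libraries alone among these 4 groups.

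Other large rises included surface and secreted proteins. Ly6c2, a monocyte surface antigen, measured 0.0501, 0.0501, 0.0513 and 0 CPM in control, 4.72, 6.02, 3.8 and 6.06 CPM under LPS and 307, 335, 316 and 296 CPM under both. The co-treated to control ratio was 8170-fold (95% interval 2800 to 39600). The NAD-consuming ectoenzyme Cd38 rose 18100-fold (95% interval 5010 to 149000) over control, with 219 ± 33.9 CPM under LPS and 463 ± 9.03 CPM under both. Marco, a scavenger receptor for bacteria, rose by 13.08 ± 0.12 (log2) to 608 ± 3.48 CPM, and Susd2 by 13.84 ± 0.23 to 1029.5 ± 38.4 CPM, beside 234 and 72.5 CPM under LPS. The SE of rises from near absence, as for Marco at 0 to 0.201 CPM in control, understates the counting error. The copper-carrying ferroxidase Cp rose by 10.30 ± 0.11 and complement factor B, Cfb, measured 87.5 ± 1.38 CPM, 3420-fold (95% interval 945 to 28200) above control. The coagulation protease F10 and the protease inhibitor Slpi rose by 6.11 ± 0.06 and 10.40 ± 0.18, and F10 was at its LPS level.

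**Figure D3:**
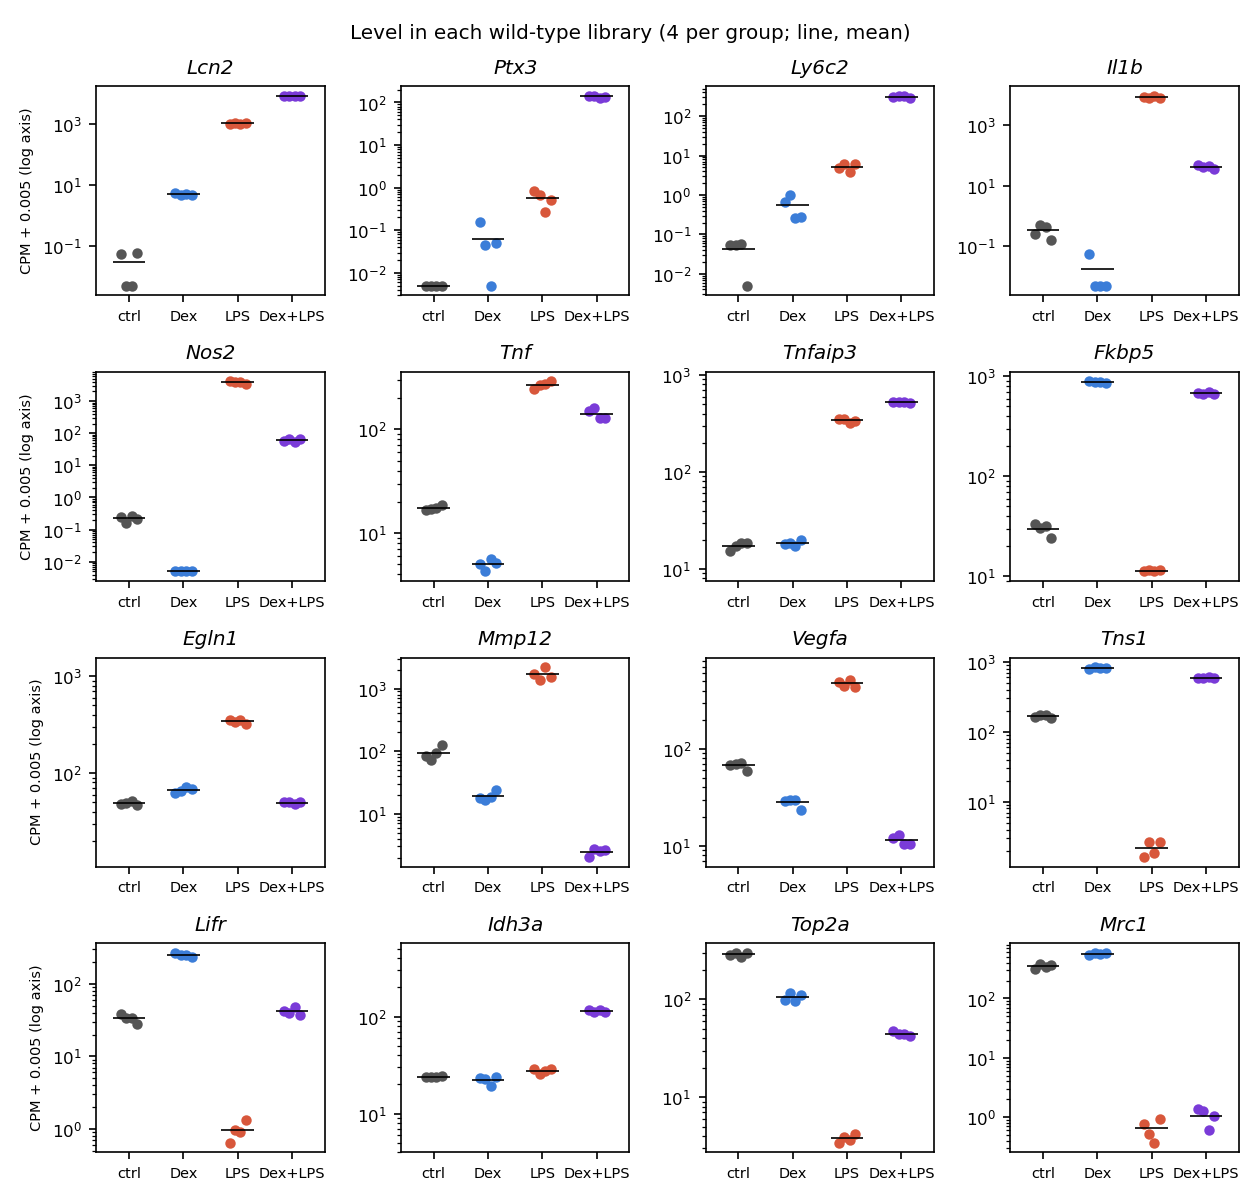
CPM plus 0.005 on a log axis in each of the 16 wild-type libraries for 16 genes, with the group mean as a line. Lcn2, Ptx3 and Ly6c2 are highest with both agents. In the co-treated libraries Il1b, Nos2 and Tnf lie between control and LPS, and Egln1 and Lifr are within 1.5-fold of control. Mmp12, Vegfa and Tns1 in the co-treated libraries lie on the far side of control from LPS.

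Classical cytokines and inflammatory enzymes stopped short of control. Of 19 tested members 16 rose and 3 fell, beside 34.5% and 37.8% of all tested genes. The median net log2 change was 5.57 beside 9.35 under LPS. Of the 16 that LPS induced, 13 were partly reversed and 0 returned, beside 16.2% and 11.5% of all LPS-induced genes. The pyrogenic cytokine gene Il1b (ENSMUSG00000027398.14, chromosome 2, 129206490 to 129213059) measured 0.251, 0.501, 0.411 and 0.160 CPM in control, 8644, 8027, 9339 and 7865 CPM under LPS and 47.8, 41.5, 44.1 and 35.9 CPM under both agents. The groups did not overlap, and the net log2 change was 6.96 ± 0.18 (edgeR adjusted p = 4.6e-36) beside 14.61 ± 0.12 for LPS. Nos2, the inducible nitric oxide synthase (ENSMUSG00000020826.10, chromosome 11, 78811613 to 78851080), measured 0.251, 0.15, 0.257 and 0.214 CPM in control, 4143, 4023, 3838 and 3396 CPM under LPS and 58.1, 64.1, 52.3 and 65.4 CPM under both. The groups again did not overlap, with a net log2 change of 8.07 ± 0.17. The log2 differences of co-treated from LPS libraries were -7.65 ± 0.08 for Il1b and -6.00 ± 0.07 for Nos2.

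Other members were reversed less. Tnf, for the cytokine tumour necrosis factor (ENSMUSG00000024401.15, chromosome 17, 35418357 to 35420983), measured 16.8, 17.1, 17.6 and 18.8 CPM in control, 241, 265, 272 and 289.6 CPM under LPS and 148, 161, 128 and 129 CPM under both, a net log2 change of 3.01 ± 0.08. Acod1 (ENSMUSG00000022126.7, chromosome 14, 103284413 to 103294009) kept a net log2 change of 8.11 ± 0.06 beside 9.35 ± 0.06 under LPS, with co-treated libraries at 2748, 2783, 2708 and 2712 CPM. The prostaglandin E synthase gene Ptges kept 8.96 ± 0.07 beside 9.63 ± 0.07. Il6 rose from 3 counts in the control group to 6.87, 6.28, 7.45 and 5.53 CPM, 169-fold (95% interval 57.6 to 824), with 72.2 ± 6.11 CPM under LPS, and Il1a measured 89.5 ± 9.08 CPM, 2320-fold (95% interval 795 to 11300) above control, with 2502 ± 38.2 CPM under LPS. The growth factor gene Csf3 measured 20.1, 19.6, 15.5 and 15.4 CPM under both agents and 13.1, 11.9, 17.2 and 12.0 CPM under LPS, from 1 count in control, and the first 2 groups overlapped. Il10, an anti-inflammatory cytokine, fell from 2.66, 1.5, 1.85 and 2.30 CPM in control to 0.556, 0.738, 0.162 and 0.440 CPM, a log2 change of -2.09 ± 0.38 (edgeR adjusted p = 3.9e-06), and its LPS level of 0.366 ± 0.190 CPM was not resolved from the co-treated level.

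Chemokine genes, whose products recruit leukocytes, fell into several classes. Of 22 tested, 9 rose and 8 fell, shares near the 34.5% and 37.8% of all genes, with a median of 0.24 beside 3.69 under LPS. Of the 17 induced by LPS, 7 were partly reversed, 1 went beyond LPS, 1 returned, 2 passed and 6 were not resolved, beside 16.2% partly reversed, 8.37% beyond LPS, 11.5% returned, 3.59% passed and 31.6% not resolved among all LPS-induced genes. Ccl5 kept most of its rise, at 8.73 ± 0.07 beside 9.65 ± 0.07 under LPS. Ccl3 measured 54.9, 56.6, 45.3 and 45.0 CPM in control, 188, 205, 189 and 211 CPM under LPS and 586, 604, 559.8 and 556 CPM under both, beyond LPS in every library. Ccl2, the monocyte attractant, measured 11.1, 10.3, 6.26 and 9.83 CPM in control, 1099, 967, 1392 and 938 CPM under LPS and 7.08, 7.06, 5.67 and 6.95 CPM under both. Its co-treated values overlapped control, and its net change of -0.48 ± 0.20 (edgeR adjusted p = 0.032) was too wide to place. Without control replicate 1, 2 or 4 or co-treated replicate 3 its edgeR adjusted p was 0.115, 0.0792, 0.0614 and 0.0854. Ccl7 likewise had a net change of -0.12 ± 0.43 (edgeR adjusted p = 0.81) with 329 ± 45.5 CPM under LPS and 1.07 ± 0.495 CPM under both. The neutrophil attractants Cxcl2 and Cxcl3 stayed above control, Cxcl2 by 5.46 ± 0.12 and Cxcl3 by 876-fold (95% interval 157 to 34600), though Cxcl3 measured 11.2 ± 1.27 CPM against 1222 ± 139 CPM under LPS. Ccl6 fell by 3.69 on the log2 scale, beyond its LPS level.

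NF-kappaB components and feedback regulators mostly stayed close to their LPS level, while SOCS, DUSP and mRNA-decay genes were more often partly reversed. Among 19 NF-kappaB components and feedback regulators 16 rose and 1 fell, beside 34.5% and 37.8% of all tested genes. Their median was 1.79 beside 1.95 under LPS. Of the 14 induced by LPS, 9 were at the LPS level, 1 beyond it and 1 partly reversed. Among all LPS-induced genes these shares were 13.8%, 8.37% and 16.2%. Tnfaip3, which encodes the ubiquitin-editing inhibitor A20 (ENSMUSG00000019850.12, chromosome 10, 18876658 to 18891405), measured 15.3, 17.2, 18.5 and 18.6 CPM in control, 353, 352, 319 and 336 CPM under LPS and 526, 527, 529 and 514 CPM under both. The co-treated libraries were the highest of the 3 groups without overlap, and the net log2 change was 4.91 ± 0.05 (edgeR adjusted p = 6.9e-53). The kinase-dead receptor inhibitor Irak3 rose by 3.45 ± 0.05 and the NF-kappaB inhibitor Nfkbia by 2.81 ± 0.05, beside 2.88 ± 0.05 and 3.10 ± 0.05 under LPS. The adaptor Traf1, at 4.27 ± 0.05, was the partly reversed member. In the list of SOCS, DUSP and mRNA-decay genes, which limit cytokine signalling, MAP kinases and cytokine mRNA, 11 of 17 rose and 4 fell. Of its 10 LPS-induced members 5 were partly reversed, 1 was at the LPS level, 1 beyond it and 1 passed below control. A further 1 was short of control but not placed against LPS, and 1 was not resolved. The MAP kinase phosphatase Dusp1 went beyond LPS, from 14.8 ± 0.539 CPM in control to 349 ± 17.1 CPM, with 152 ± 24.3 CPM under LPS and 105 ± 3.81 CPM under dexamethasone. The RNase gene Zc3h12a stayed at the LPS level (2.96 ± 0.06), and Socs3 was partly reversed (6.08 ± 0.09 beside 7.28 ± 0.09).

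Glucocorticoid receptor targets were high in co-treated cells. Of 29 tested 24 rose and 2 fell, beside 34.5% and 37.8% of all tested genes. The median net log2 change was 2.01 beside 1.81 under dexamethasone and 0.27 under LPS. LPS alone induced 14 of the members, among them Lcn2, Fpr1 and Nfkbia. Fkbp5, a co-chaperone of the receptor (ENSMUSG00000024222.18, chromosome 17, 28618068 to 28736501), measured 33.2, 30.5, 31.6 and 24.4 CPM in control, 11.2, 11.5, 11.3 and 11.6 CPM under LPS, 893, 883, 871 and 865 CPM under dexamethasone and 687, 669, 695 and 673 CPM under both. Its net log2 change was 4.51 ± 0.06 (edgeR adjusted p = 1.8e-47), on the other side of control from LPS. Among 9 list members that LPS lowered, 6 passed above control, where 2.24% of all LPS-repressed genes did. The formyl peptide receptor Fpr1 also rose to 239.8 ± 13.6 CPM from 0.0526 ± 0.0755 CPM, at its LPS level. Of 16 circadian clock genes, which include receptor targets, 6 rose and 6 fell, which is close to the shares of all genes (34.5% and 37.8%). Per1 rose by 2.44 ± 0.05 and Cry1 by 1.97 ± 0.06, both beyond LPS, while Nr1d2 fell by 3.78 and Tef by 1.44 on the log2 scale. Without TMM scaling 10 clock genes were called lower.

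Interferon-stimulated genes ended on both sides of baseline, as genes did in general. Of 36 tested 14 rose and 14 fell, shares close to the 34.5% and 37.8% of all genes, and the median was -0.02 beside 1.08 under LPS and -1.98 under dexamethasone. Without TMM scaling 22 members were called lower. Of 20 that LPS induced, 10 returned, 3 passed below control and 4 were partly reversed, so this list held a larger returned share than the 11.5% of all LPS-induced genes, a difference that was not tested. The antiviral gene Ifit2 measured 330.5, 319, 319 and 250.2 CPM in control, 252 ± 16.3 CPM under LPS and 46.5, 49.7, 49.7 and 48.4 CPM under both agents. Its relative Ifit3 measured 201, 185, 190.4 and 149 CPM in control, 218 ± 3.94 CPM under LPS and 30, 29.3, 28 and 30.4 CPM under both. Co-treated libraries were below control without overlap in both genes, with net log2 changes of -2.65 ± 0.07 and -2.62 ± 0.07 beside -4.20 ± 0.08 and -4.20 ± 0.08 under dexamethasone. Ifit3b and the DNA sensor Ifi204 fell by 3.61 and 1.66 on the log2 scale. Oasl1 returned, with 29.8, 27.1, 28.6 and 23.7 CPM in control, 192, 196, 199 and 179 CPM under LPS and 33.5, 34.7, 32.6 and 34.6 CPM under both. Every co-treated value of Oasl1 was above control, and the change of 0.31 ± 0.06 (edgeR adjusted p = 2.1e-05) lay inside the 1.5-fold band.

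Guanylate-binding proteins and related GTPases, which attack intracellular pathogens, also split, as genes did in general. Of 13 tested 6 were higher and 6 lower, beside 34.5% and 37.8% of all tested genes. Gbp2, Gbp5 and Gbp7 were partly reversed at 2.18 ± 0.05, 2.88 ± 0.09 and 1.48 ± 0.06, beside 3.82 ± 0.05, 4.83 ± 0.08 and 3.18 ± 0.05 under LPS. MHC class I and immunoproteasome genes, which serve antigen presentation to CD8 T cells, were mostly above control, with 10 of 15 higher and 3 lower. Their median was 0.34 beside 1.00 under LPS. Of 8 that LPS induced, 4 returned and 2 were partly reversed, beside 11.5% and 16.2% of all LPS-induced genes. A further 1 was short of control but not placed against LPS, and 1 was not resolved. H2-K1 measured 1411 ± 27.1 CPM in control, 3543 to 4160 CPM under LPS and 2231 ± 36.2 CPM in co-treated libraries. In the MHC class II and co-stimulation list 8 of 13 fell and 5 rose, to be read beside 37.8% and 34.5% of all tested genes. The class II genes H2-Aa and Cd74 fell by 1.90 and 1.94 on the log2 scale, with LPS changes of -0.09 ± 0.07 and 0.07 ± 0.05. The activation marker Cd83 measured 74.1, 81.1, 79.6 and 74.6 CPM in control, 15.3, 11.3, 17.8 and 12.2 CPM under LPS and 0.404, 0.323, 0.486 and 0.440 CPM under both, far below either. Icosl, a ligand for T cell co-stimulation, rose by 2.45 ± 0.05, beyond LPS.

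Mmp12, Ndrg1 and Vegfa were among the genes that LPS raised and that ended below control. Mmp12, macrophage elastase (ENSMUSG00000049723.15, chromosome 9, 7344381 to 7369499), measured 83.7, 72.8, 92.3 and 125 CPM in control, 1707, 1368, 2207 and 1508 CPM under LPS and 2.02, 2.77, 2.54 and 2.59 CPM under both. LPS libraries were above and co-treated libraries below every control library, with log2 changes of 4.19 ± 0.11 and -5.22 ± 0.19 (edgeR adjusted p = 5.2e-29 for the latter). The collagenase Mmp13 measured 7.42, 6.91, 7.49 and 7.53 CPM in control, 285, 252, 322 and 240.2 CPM under LPS and 0.404, 1.15, 1.35 and 1.22 CPM under both. In the list of matrix proteases and inhibitors 7 of 16 rose and 6 fell, near the 34.5% and 37.8% of all tested genes. The membrane-bound protease Mmp14 was opposite to Mmp12 and Mmp13 and stayed at its LPS level, at 769.9 ± 15.6 CPM from 0.230 ± 0.0463 CPM in control. Vegfa, the angiogenic growth factor (ENSMUSG00000023951.19, chromosome 17, 46327919 to 46343295), measured 68.5, 70.0, 72.2 and 58.8 CPM in control, 495, 443, 517 and 437 CPM under LPS and 12.1, 12.8, 10.3 and 10.5 CPM under both. The cytokine receptor Il21r passed with a net change of -3.77 ± 0.10 against 1.61 ± 0.06 under LPS, and the niacin receptor Hcar2 and the adhesion protein Flrt2 passed with -1.03 ± 0.18 and -1.83 ± 0.14. Arg1, for arginase 1, had 399, 318, 541 and 316 CPM under LPS and 0 counts in all 4 co-treated libraries, at least 10600-fold higher under LPS. Control held 3 counts, so control and co-treated Arg1 are both at the limit of detection.

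LPS-repressed genes that passed above control included known glucocorticoid targets. Tns1, a focal adhesion protein (ENSMUSG00000055322.17, chromosome 1, 73949390 to 74163608), measured 161, 172, 172 and 158 CPM in control, 1.61, 2.67, 1.82 and 2.64 CPM under LPS and 578, 587, 600.0 and 587 CPM under both, and 786, 842, 812 and 817 CPM under dexamethasone. Its net log2 change was 1.83 ± 0.05 (edgeR adjusted p = 3.3e-33). Mertk, a receptor for apoptotic cells, measured 53.4, 55.6, 56.7 and 55.6 CPM in control, 5.11, 7.61, 6.66 and 7.21 CPM under LPS and 109, 109, 119 and 114 CPM under both. Every co-treated library was above every control library for both genes. Klhl6, Sort1, Ldlrad3 and Rcsd1 also passed, with 2.56 ± 0.06, 0.92 ± 0.05, 0.82 ± 0.06 and 0.80 ± 0.05.

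Genes that returned came close to control in each library. Egln1, the oxygen sensor PHD2 (ENSMUSG00000031987.7, chromosome 8, 125635326 to 125676063), measured 47.6, 49.0, 51.2 and 47.4 CPM in control, 356, 333, 356 and 321 CPM under LPS and 49.8, 50, 47.7 and 50.1 CPM under both. The net change was 0.02 ± 0.05 (edgeR adjusted p = 0.74) and the groups overlapped. The immune receptor Slamf8, the glycogen phosphatase Epm2a, the transcription factor Zeb1 and Perm1 returned with 0.17 ± 0.14, 0.02 ± 0.17, 0.13 ± 0.16 and -0.02 ± 0.14, against LPS changes of 3.62, 3.16, 2.78 and 2.68. On the repressed side Lifr, the receptor for leukaemia inhibitory factor (ENSMUSG00000054263.13, chromosome 15, 7120095 to 7226970), measured 39.0, 33.6, 33.7 and 27.8 CPM in control, 0.633, 0.965, 0.884 and 1.32 CPM under LPS and 42.3, 39.8, 47.6 and 37.8 CPM under both, with 269.7, 255, 255 and 235 CPM under dexamethasone. Its co-treated and control libraries overlapped, at a net change of 0.32 ± 0.08 (edgeR adjusted p = 6.1e-04). The integrin Itgb3, the mTOR inhibitor Deptor, the tumour suppressor Rassf2 and the peroxisomal transporter Abcd2 returned with 0.28 ± 0.07, -0.33 ± 0.06, -0.39 ± 0.05 and 0.00 ± 0.07, against LPS changes of -4.30, -3.50, -3.62 and -3.41. The haptoglobin-haemoglobin receptor Cd163 ended near control but outside the returned class, at 57.3 ± 3.65 CPM in control and 83.0 ± 0.979 CPM in co-treated libraries.

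Glycolysis stayed raised at a lower level than under LPS. Of 22 genes 18 rose and 4 fell, beside 34.5% and 37.8% of all tested genes. The median net log2 change was 1.17 beside 2.26 under LPS. Of 18 LPS-induced members 12 were partly reversed, where 16.2% of all LPS-induced genes were. The enolase gene Eno1 measured 463, 475, 454 and 490.4 CPM in control, 4998, 4794, 5137 and 4635 CPM under LPS and 1472, 1499, 1433 and 1436 CPM under both. The phosphoglycerate kinase gene Pgk1 and the phosphofructokinase gene Pfkl rose by 1.65 ± 0.04 and 2.90 ± 0.04, beside 3.42 ± 0.04 and 3.82 ± 0.04 under LPS. Pfkfb3, whose product makes the activator of phosphofructokinase, stayed at its LPS level (4.74 ± 0.06 beside 4.61 ± 0.06). Targets of the hypoxia factor HIF1 outside glycolysis came nearer to control, with 9 higher and 6 lower of 18 and a median of 0.34 beside 2.55 under LPS. Among all LPS-induced genes 11.5% returned and 3.59% passed. Of 17 induced by LPS, 5 returned and 3 passed, among them Vegfa above and Ndrg1, at 104, 109.9, 112 and 117 CPM in control, 278, 234, 265 and 219.8 CPM under LPS and 5.86, 7.06, 8.32 and 6.26 CPM under both. The oxidoreductase gene Ero1l fell from 1572 ± 66.8 CPM under LPS to 87.5 ± 3.99 CPM, against 37.0 ± 2.29 CPM in control. Hif1a itself stayed at its LPS level, 1.5 ± 0.04 above control.

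Oxidative metabolism genes were raised in co-treated cells more than by either agent alone, as list medians. Of 46 nuclear genes of the respiratory chain 45 rose and 0 fell, with a median net log2 change of 0.93 beside 0.21 under LPS and -0.14 under dexamethasone. Of 25 TCA cycle genes 21 rose and 2 fell, with a median of 0.67 beside 0.17 and -0.10. Both lists stand well above the 34.5% of all genes called higher. Genes encoded by the mitochondrial genome took 0.394% to 0.517% of control counts and 0.539% to 0.631% of co-treated counts, and the part of this shift in the result was not tested. Idh3a, a subunit of the NAD-linked isocitrate dehydrogenase (ENSMUSG00000032279.12, chromosome 9, 54493618 to 54511945), measured 23.8, 23.6, 23.8 and 24.2 CPM in control, 23, 22.7, 19.4 and 24.0 CPM under dexamethasone, 28.6, 25.8, 27.8 and 28.7 CPM under LPS and 117, 111, 117 and 111 CPM under both. Co-treated libraries were the highest without overlap, with a net log2 change of 2.25 ± 0.05 (edgeR adjusted p = 2.5e-37), and the single agents gave -0.10 ± 0.06 and 0.22 ± 0.06. Malate dehydrogenase Mdh2 and the succinate dehydrogenase subunit Sdhd rose by 1.96 ± 0.04 and 1.21 ± 0.04. The ATP synthase subunits Atp5b and Atp5a1, cytochrome c (Cycs) and Cox8a rose by 1.47 ± 0.03, 1.02 ± 0.03, 1.99 ± 0.05 and 1.37 ± 0.04. For pyruvate entry into mitochondria 8 of 12 genes rose and 4 fell. The pyruvate dehydrogenase subunits Dlat, Pdha1 and Pdhb rose by 1.32 ± 0.05, 1.10 ± 0.04 and 0.73 ± 0.05, and the phosphatase Pdp1 fell by 1.61 on the log2 scale.

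**Figure D4:**
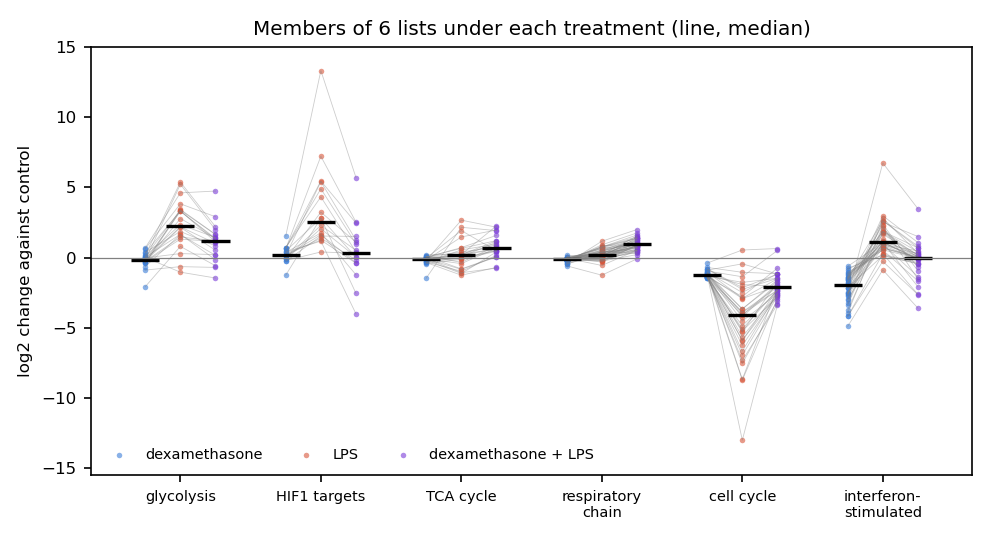
Log2 change against control (y axis) of the members of 6 gene lists under dexamethasone (blue), LPS (red) and both (purple), with grey lines joining each gene and black lines at the medians; fitted values of genes with 0 counts in a group are not bounds. The respiratory chain median is 0.93 with both agents against 0.21 under LPS, and the glycolysis median is 1.17 against 2.26.

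Idh3a belonged to a set that changed with the combination while it stayed near control under each agent alone. Of all genes, 147 (1.02%) changed by at least 2-fold while the intervals of both single-agent changes lay within 1.5-fold of control, 102 upward and 45 downward. Without LPS replicate 3 the number was 148. The enoyl-CoA isomerase gene Eci2 measured 19.3, 24.1, 20.3 and 21.7 CPM in control and 121, 117, 114 and 106 CPM in co-treated libraries, with 24.8 ± 2.33 CPM under LPS and 23.2 ± 0.702 CPM under dexamethasone. Gramd4 rose by 2.08 ± 0.06. The cytoskeletal adaptors Epb41l1 and Raph1 fell by 2.46 and 2.43 on the log2 scale, Epb41l1 from 90.5, 92.5, 94.3 and 99.5 CPM to 16.6, 17.4, 15.8 and 18.6 CPM.

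Other anabolic and stress programmes were also raised over control, some of them less than under LPS. Their lists are read beside the 34.5% of all tested genes called higher and 37.8% called lower. In cholesterol synthesis 22 of 23 genes rose and 1 fell, with a median of 0.59 beside -0.38 under LPS and -0.77 under dexamethasone. Mvd, Lss and Hsd17b7, 3 enzymes of the pathway, rose by 2.03 ± 0.05, 1.37 ± 0.05 and 1.66 ± 0.09. Ribosome biogenesis genes rose in 21 of 27 and fell in 1, with a median of 0.47 beside -0.15 under LPS. They included Rrs1 (1.96 ± 0.06) and Polr1a, the large subunit of RNA polymerase I (1.10 ± 0.07). Endoplasmic reticulum chaperones rose in 15 of 18, with a median of 0.93 beside 0.51 under LPS. Hspa5 was at 1.17 ± 0.03, Hyou1 at 1.67 ± 0.04 and Manf at 1.82 ± 0.06. Integrated stress response and serine synthesis genes rose in 15 of 19 and fell in 1, with a lower median than under LPS (0.97 beside 1.81). The first enzyme of serine synthesis, Phgdh, measured 25.9, 25.8, 27.4 and 28.4 CPM in control, 43.0, 58.0, 38.7 and 67.2 CPM under LPS and 344, 342, 315 and 315 CPM under both. NRF2 targets and glutathione genes, which counter oxidants, rose in 18 of 25 and fell in 5, with a median of 0.49 beside 1.38 under LPS. Of 16 that LPS induced, 4 returned, 4 were partly reversed, 4 were at the LPS level and 1 was beyond it. Among all LPS-induced genes these shares were 11.5%, 16.2%, 13.8% and 8.37%. Slc7a11 and Gsr were at their LPS level (6.96 ± 0.08 and 2.80 ± 0.04) and Gsta3 was beyond it (7.23 ± 0.18). Among 17 iron genes 12 rose and 4 fell, with a median of 1.36 beside 1.91 under LPS. The iron exporter Slc40a1 measured 113, 129, 131 and 141 CPM in control and 1.36, 2.63, 2.75 and 2.54 CPM in co-treated libraries.

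Proliferation genes stayed low, though less so than under LPS. Of 35 cell cycle genes 33 fell and 2 rose, beside 37.8% and 34.5% of all tested genes. The median net log2 change was -2.11 beside -4.12 under LPS and -1.28 under dexamethasone. Of 33 that LPS lowered, 29 were partly reversed and 0 returned, beside 16.2% and 8.74% of all LPS-repressed genes. Top2a, the DNA topoisomerase of dividing cells (ENSMUSG00000020914.18, chromosome 11, 98883769 to 98915015), measured 284, 295, 272 and 299 CPM in control, 3.41, 3.92, 3.64 and 4.19 CPM under LPS and 47.0, 44.3, 44.7 and 42 CPM under both. The mitotic genes Kif11, Ccnb2 and Cenpe fell by 3.34, 3.08 and 2.55 on the log2 scale. Cenpf had 0 counts in all 4 LPS libraries and 5.00, 4.06, 5.83 and 4.70 CPM in co-treated ones, against 50.7 ± 2.67 CPM in control. Ccnd1, for cyclin D1, differed from these and stayed at its LPS level, at 63.5 ± 6.50 CPM in control and 3.82 ± 0.379 CPM in co-treated libraries.

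Macrophage identity genes were mostly lower, while scavenger genes moved both ways. Of all tested genes 37.8% fell and 34.5% rose. Of 17 macrophage identity genes 12 fell and 5 rose, with a median of -0.98 beside -1.34 under LPS. The lipid sensor Trem2 (ENSMUSG00000023992.15, chromosome 17, 48653429 to 48661175) measured 718, 723, 728 and 775 CPM in control, 53.9, 46.5, 58.9 and 58.5 CPM under LPS and 30.3, 34.4, 32.3 and 35.2 CPM under both, below LPS in every library. The transcription factor Maf fell by 2.63 on the log2 scale to its LPS level, and galectin 3 (Lgals3) by 2.46, while the F4/80 gene Adgre1 rose by 1.82 ± 0.03. Among 20 scavenger, efferocytosis and alternative-activation genes 11 fell and 8 rose. The mannose receptor gene Mrc1 (ENSMUSG00000026712.4, chromosome 2, 14234203 to 14336868) measured 311, 385, 335 and 369 CPM in control, 0.779, 0.511, 0.364 and 0.936 CPM under LPS, 535, 589.6, 555 and 584 CPM under dexamethasone and 1.06 ± 0.339 CPM under both, so the co-treated level lay with LPS. The bridging ligand Gas6 and the fatty acid receptor Cd36 fell by 5.01 and 4.42, Cd36 to 15.5 ± 0.334 CPM from 332 ± 31.6 CPM in control and 171 ± 13.6 CPM under LPS. Lysosomal genes fell in 22 of 29 and rose in 5, with the lipase Lipa and the cathepsin Ctss lower by 2.31 and 1.66 on the log2 scale. The hexosaminidase gene Hexa fell from 1200.5 ± 12.4 CPM in control to 505 ± 12.1 CPM. LXR targets of cholesterol export split 6 to 6 of 13, with Pltp and Apoe lower by 4.00 and 3.68.

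The largest falls included a prostaglandin-degrading enzyme, a transporter and macrophage receptors. Hpgd, which inactivates prostaglandins (ENSMUSG00000031613.10, chromosome 8, 56747620 to 56774078), measured 206, 205, 195 and 170.5 CPM in control and 0.0505, 0, 0.162 and 0.0489 CPM in co-treated libraries, a log2 change of -11.47 ± 0.16. The co-treated level rests on 5 counts, so this SE understates the counting error. Slco2b1, an organic anion transporter, had 14.8, 15, 15.8 and 18.1 CPM in control and 0 counts in all co-treated libraries, at least 426-fold higher in control. The Fc receptor-like gene Fcrls and the apoptosis inhibitor of macrophages Cd5l fell by 8.51 and 8.26, to 0.511 ± 0.0878 and 0.169 ± 0.108 CPM. Gprc5c, Cd300ld3 and Klk1b11 fell to 1 or 2 counts over the co-treated group, with control higher by 1330-fold (95% interval 239 to 52700), 489-fold (95% interval 135 to 4050) and 454-fold (95% interval 125 to 3750). The inhibitory receptor Cd300a and the chemokine receptor Ccr2 went beyond their LPS level, by log2 changes of -7.09 ± 0.07 and -7.85 ± 0.13. In prostaglandin and leukotriene metabolism 10 of 17 fell and 7 rose, beside 37.8% and 34.5% of all tested genes. Alox5 and Hpgds were lower by 4.55 and 2.61. Complement genes split, as genes did in general, with 8 higher and 10 lower of 18. C3 rose by 4.80 ± 0.06, while C1qc and the anaphylatoxin receptor C3ar1 fell by 2.66 and 2.98.

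List counts for receptors, sensors and further groups are given as a description, beside 34.5% of all tested genes called higher and 37.8% lower. Several lists did not lie near these shares. Among Toll-like receptors and LPS sensing genes 8 rose and 10 fell of 19. Tlr2, the receptor for bacterial lipopeptides, measured 151, 141, 147 and 137 CPM in control, 245, 277, 229 and 300.4 CPM under LPS and 751, 769, 798 and 752 CPM under both, above either. The nucleic acid sensors Tlr9 and Tlr8 fell by 3.66 and 1.75. Of 24 interleukin receptors 13 rose, among them Il15ra (4.55 ± 0.07), and 9 fell. In the TNF superfamily 11 rose and 9 fell of 21, with Tnfsf15 at 36.1, 36.9, 38 and 39.7 CPM under both agents against 3.6, 3.97, 2.50 and 4.74 CPM under LPS and 0.602, 0.501, 0.257 and 0.641 CPM in control. Chemoattractant receptors rose in 7 and fell in 11 of 18, colony-stimulating factors and receptors rose in 6 and fell in 4 of 11, and inflammasome genes rose in 10 and fell in 6 of 16. Checkpoint ligands and regulatory receptors split 6 to 6 of 12, with Cd274, for PD-L1, partly reversed at 2.36 ± 0.06 beside 4.95 ± 0.06 under LPS. Nitric oxide and arginine genes rose in 9 of 13, metallothioneins and zinc transporters in 4 of 9, and cyclins, inhibitors and Myc in 6 of 15, with 3, 5 and 9 lower.

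**Figure D5:**
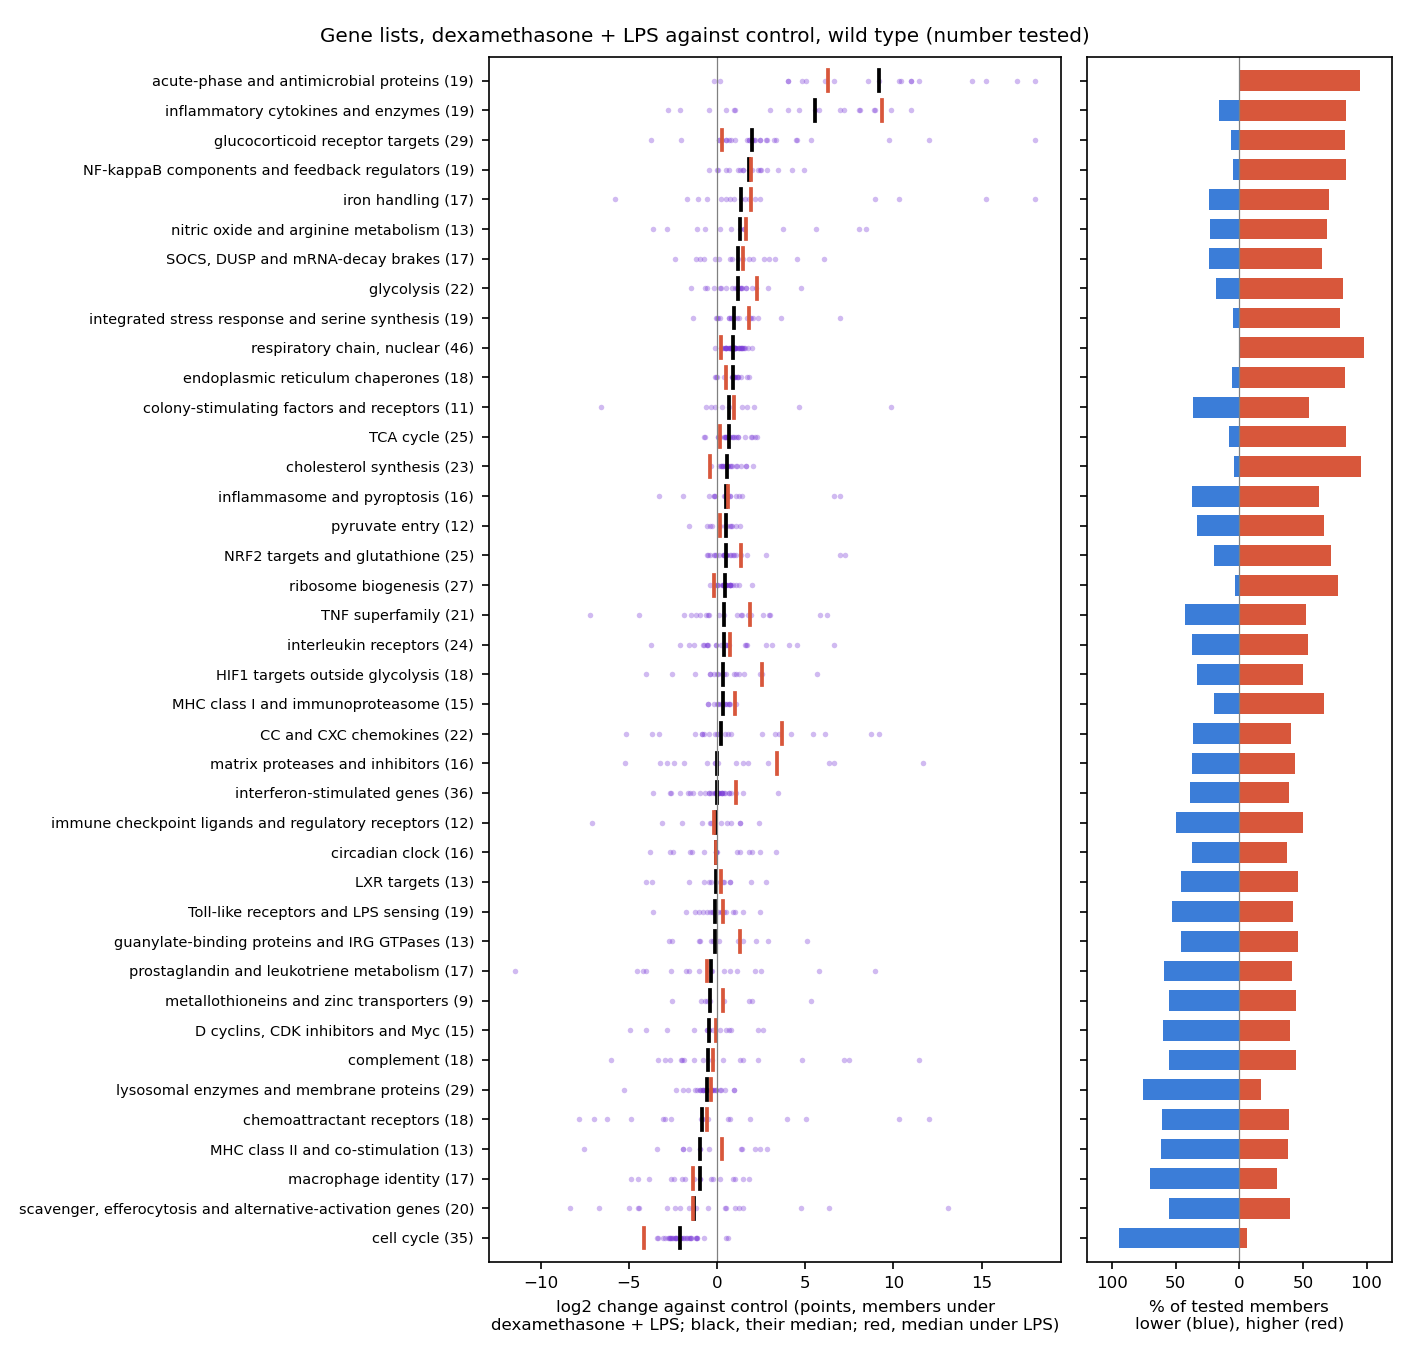
Left, net log2 change (x axis) of each tested member (points) of 40 gene lists (y axis, number tested in brackets), with the list median in black and its median under LPS alone in red. Right, percentage of tested members called higher (red) or lower (blue) than control; acute-phase genes lead at a median of 9.17 and cell cycle genes are lowest at -2.11.

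In the Acod1 KO libraries the same contrast called 74.0% of genes. Of 3981 WT net calls of at least 2-fold, 3545 (89.0%) were called the same way in KO, 89 (2.24%) the opposite way and 347 (8.72%) were not called. The KO contrast shares no library with the WT contrast, but the KO libraries with both agents were in lane 2 while KO controls were in lane 3 (1 of them merged), as were all WT libraries. Within KO, treatment therefore cannot be told apart from sequencing lane, and neither can genotype for the libraries with both agents, so the counts above rest on a contrast confounded with lane. Differences between genotypes were not tested here. Acod1 was still counted in the KO libraries, at 3933 ± 195 CPM with both agents, and the deleted stretch is not given in the sources used here, so this count does not check the genotype. Side by side, the net log2 change of Il1b was 6.96 ± 0.18 in WT and 14.32 ± 0.13 in KO, that of Tnfaip3 4.91 ± 0.05 and 4.61 ± 0.05, and that of Fkbp5 4.51 ± 0.06 and 3.34 ± 0.06. Mmp12 was below control in WT (-5.22 ± 0.19) and above it in KO (2.73 ± 0.11), and Vegfa likewise (-2.55 ± 0.08 and 1.91 ± 0.06). Idh3a rose in both, by 2.25 ± 0.05 and 1.20 ± 0.05.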

How the data were processed

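The series holds 32 mRNA libraries in 8 groups of 4. The deposited values are raw read-pair counts per gene from featureCounts 2.0.0 with the GENCODE vM32 annotation, without strand, per the file headers; STAR is named in the submitters' processing notes, with GRCm38 as the build. Printed gene positions are those of the deposited count table, whose GENCODE vM32 annotation uses a later build than GRCm38. Promoter positions are on GRCm38.p6, so the printed positions of a gene and its promoter cannot be compared. Reads of overlapping or antisense genes cannot be told apart. Symbols matched 52029 of 56953 gene IDs, and IDs without one took 0.846% of counts. Genes passing edgeR's filterByExpr (14427) were fitted over all 8 groups with TMM scaling and the quasi-likelihood test (edgeR 4.0.16, R 4.3.3), at an adjusted p under 0.05, and DESeq2 1.42.0 was an alternative. The scripts were run on simulated data with 2-fold changes in genes with ample counts. That simulation does not cover the SE and intervals of larger changes or of changed genes with few counts. Intervals of folds from 1 to 3 counts are 95% exact binomial ones, and folds from 0 counts are set against 3 counts over the group's 4 libraries, both covering counting error only.

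The gene lists and members were chosen with earlier results of these data known. Named genes are a fixed few, up to 4 members per list by smallest adjusted p, the 8 largest rises and 8 largest falls, up to 6 per LPS class by size of the LPS change, and 5 of the combination-only set. Same-numbered replicates did not deviate together (correlations of -0.0175 to -0.000613), so numbers were not used as pairs.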

Additional observations from a re-analysis of the deposited data

Results flagged for a closer look

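Among the 157 genes described, 314 groups of 4 libraries (control or co-treated) were examined for a library far from the other 3, and 17 were found, where chance gives about 1 in 20. In control replicate 4 these were Fcrls at 180 CPM (others 191 to 192), Gbp5 at 4.17 (5.42 to 5.65), Gbp7 at 21.2 (23.5 to 23.6), Ifit2 at 250.2 (319 to 331), Mdh2 at 110.0 (101 to 102), Mmp14 at 0.160 (0.25 to 0.257) and Trem2 at 775 (718 to 728). Hcar2 measured 3.56 CPM in control replicate 2 (others 4.26 to 4.27). In co-treated replicate 3 they were Ccl2 at 5.67 CPM (others 6.95 to 7.08), Egln1 at 47.8 (49.8 to 50.1), Gbp7 at 68.3 (62.2 to 63.1), Kit at 0 counts (0.185 to 0.202) and Socs3 at 282 (270 to 271). In co-treated replicate 1 they were Cd74 at 66.7 CPM (others 61.5 to 62.2), Pdp1 at 11.1 (12.3 to 12.3) and Slc40a1 at 1.37 (2.54 to 2.76). Cox8a measured 297 CPM in co-treated replicate 4 (others 316 to 318). Of these genes, Ccl2 alone lost its call when the library was left out.

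In 11 genes every co-treated library lay on one side of control in WT and on the opposite side in Acod1 KO. The difference between genotypes was not tested, and neither it nor the KO treatment change can be told apart from the sequencing lane. The WT and KO net log2 changes were -5.22 and 2.73 for Mmp12, -2.82 and 3.83 for Mmp13, -2.55 and 1.91 for Vegfa, and -4.01 and 0.24 for Ndrg1. They were -1.83 and 2.97 for Flrt2, -1.03 and 3.19 for Hcar2, -3.77 and 0.53 for Il21r, and -1.54 and 1.45 for Rsad2. LPS-repressed genes did so in the other direction, with 0.53 and -0.81 for Cd163, 0.28 and -1.06 for Itgb3, and 0.92 and -0.29 for Sort1.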

How the results depend on the processing

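Calls in the net change were stable in number, at 10159 to 10234 with 1 library left out against 10436 with all, 10468 with DESeq2 and 10451 with a replicate block, which changed no call of a gene named in the text. In pairing the libraries by number, 0 controls correlated best with the co-treated library of their own number. The class counts moved with the band. With a 2-fold band the LPS-induced genes held 531 returned, 45 passed, 186 partly reversed and 108 beyond LPS, and the LPS-repressed genes 548, 34, 215 and 94. With a factor 25% above 1 as the band they held 91 returned, 578 partly reversed and 128 at the LPS level, and 62, 668 and 123. Without normalization the net change of Egln1 was -0.14 and of Abcd2 -0.16, opposite in sign to the TMM values, and Itgb3 (0.12) and Lifr (0.15) were no longer called. Members called lower then numbered 3 for endoplasmic reticulum chaperones, 5 for ribosome biogenesis, 2 each for the stress response and NF-kappaB lists and 1 for the respiratory chain, and 3 lysosomal genes were called higher. Lists mostly higher or mostly lower numbered 22 and 13, and 20 and 16 without normalization. The 687 and 586 unresolved genes had low median levels, and whether depth accounts for them was not tested. Near-identical families (Saa, Ifit3, Ly6c2, Klk1b11, Cd300ld3, Gsta3, H2) are uncertain, since the treatment of shared reads is not given in the sources used here.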
